A study of Mus musculus with 14 samples.

Results

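A set of 2634 CRTC2 sites was described in mouse 3T3-L1 cells, labelled as adipocytes, which arise from a preadipocyte line. The sites were the CRTC2 peaks called after FSK/TNFα co-treatment that overlapped by at least 1 bp a peak called with FSK alone and a peak called with TNFα alone, and that overlapped no peak of the untreated control. They made up 18.6% of the 14171 peaks of the FSK/TNFα list, and the 4 CRTC2 lists together held 50635 peaks. These sites are called induced sites in what follows. The calls and levels of CRTC2 in the 4 lists chose them, so CRTC2 itself is given as a description, while p65, H3AcK27, sequence and position were not used in the choice.

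ChIP-seq peak lists were available for CRTC2, for the NF-κB subunit p65 and for H3AcK27, an acetylated histone mark of active promoters and enhancers. Unmodified 3T3-L1 cells were left untreated (control), or were treated for 1 h with 10 µM forskolin (FSK), with TNFα, or with FSK and TNFα together. With 1 library per antibody and treatment, treatments could not be compared beyond these libraries, and no p-value is given. The 95% Wilson intervals printed here cover counting error over sites only, and neighbouring sites and sites of 1 library are not independent replicates.

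CRTC2 is a coactivator of the transcription factor CREB. Salt inducible kinases phosphorylate it and hold it in the cytoplasm, and cAMP signaling, which FSK raises by activating adenylyl cyclase, releases it to the nucleus, where it joins CREB at cAMP response elements (CREs). TNFα acts mainly through IκB kinase, which frees NF-κB dimers that contain p65, and through MAP kinases that raise AP-1, the FOS and JUN family of factors. The palindromic CRE reads TGACGTCA and its core reads TGACG. The AP-1 motif reads TGAGTCA.

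Induced sites fell into promoters that carry a CRE core close to the start site, promoters without one, and a smaller number of distal sites. Of the 541 distal sites, 141 (26.1%) held a CRE core and 96 (17.7%) an AP-1 motif. The sequences below are whole called peaks on GRCm38, written 5′ to 3′ along the strand of the named gene, and capitals mark CRE cores on either strand unless stated otherwise. The first set shows promoter sites of cAMP-responsive or early genes with a single core. Ptgs2 encodes cyclooxygenase-2, Gem a small GTPase, Btg2 an antiproliferative factor and Cebpd the adipogenic factor C/EBPδ.
Ptgs2, chr1:150100029-150100191, plus strand: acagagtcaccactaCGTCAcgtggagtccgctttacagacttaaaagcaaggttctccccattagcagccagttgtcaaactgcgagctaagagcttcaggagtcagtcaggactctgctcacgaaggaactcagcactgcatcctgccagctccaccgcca
Gem, chr4:11704409-11704571, plus strand: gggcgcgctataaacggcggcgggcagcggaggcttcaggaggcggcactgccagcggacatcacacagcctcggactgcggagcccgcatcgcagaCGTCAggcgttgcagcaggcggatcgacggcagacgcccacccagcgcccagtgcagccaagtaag
Btg2, chr1:134079015-134079177, minus strand: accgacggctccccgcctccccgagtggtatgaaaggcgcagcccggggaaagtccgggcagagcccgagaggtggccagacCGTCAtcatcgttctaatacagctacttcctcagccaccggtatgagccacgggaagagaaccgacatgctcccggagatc
Cebpd, chr16:15887239-15887401, plus strand: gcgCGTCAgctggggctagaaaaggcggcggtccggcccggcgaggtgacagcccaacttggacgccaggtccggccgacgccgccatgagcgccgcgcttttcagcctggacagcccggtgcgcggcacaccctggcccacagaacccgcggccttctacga

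The next set shows sites that leaned to FSK: the Babam2 site had the lowest TNFα to FSK ratio among the better-scored sites, and the sites near Cebpb and Lif were distal and also bound p65. The Babam2 site lay 469 bp downstream of a start site of Babam2, which encodes a subunit of a BRCA1 complex, in an intron and inside the promoter window of the oppositely oriented gene Rbks. The Cebpb site lay 88611 bp downstream of the start of the gene for C/EBPβ, between genes, and the Lif site 32859 bp downstream of the start of the gene for the cytokine LIF, also between genes. Both the Babam2 and the Cebpb site held a full palindromic CRE, seen as a run of 8 capitals.
Babam2, chr5:31698438-31698600, plus strand: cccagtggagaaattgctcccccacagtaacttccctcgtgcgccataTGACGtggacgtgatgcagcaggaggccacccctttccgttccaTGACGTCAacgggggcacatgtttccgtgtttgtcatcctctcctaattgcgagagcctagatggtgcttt
Cebpb, chr2:167777445-167777607, plus strand: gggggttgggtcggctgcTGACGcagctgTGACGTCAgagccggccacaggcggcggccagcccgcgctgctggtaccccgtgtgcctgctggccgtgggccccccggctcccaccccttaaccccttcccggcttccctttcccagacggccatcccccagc
Lif, chr11:4299873-4300035, plus strand: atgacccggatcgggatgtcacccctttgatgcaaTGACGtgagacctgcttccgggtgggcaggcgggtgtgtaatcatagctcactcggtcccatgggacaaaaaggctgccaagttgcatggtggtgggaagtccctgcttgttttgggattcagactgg

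The Cxcl1 site is shown because it was 1 of only 2 induced sites whose central 200 bp held an exact NF-κB motif. The capitals mark 2 overlapping matches on opposite strands. The site covered the start of Cxcl1, which encodes a neutrophil chemokine, and its midpoint lay in the 5′ UTR.
Cxcl1, chr5:90891170-90891332, plus strand: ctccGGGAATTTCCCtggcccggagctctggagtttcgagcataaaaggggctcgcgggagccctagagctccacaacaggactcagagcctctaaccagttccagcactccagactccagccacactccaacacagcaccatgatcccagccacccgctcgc

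The last pair had neither a CRE core nor an AP-1 motif, and so no capitals. Dusp1, which encodes a phosphatase of MAP kinases, had the smallest sum of score ranks over the 3 treated lists among sites of at least 8-fold over input outside bins of high input. Rpl8, a ribosomal protein gene, had the highest TNFα to FSK ratio among the better-scored sites. Of their 163 bases, 60.1% were G or C at Dusp1 and 62.0% at Rpl8.
Dusp1, chr17:26508343-26508505, minus strand: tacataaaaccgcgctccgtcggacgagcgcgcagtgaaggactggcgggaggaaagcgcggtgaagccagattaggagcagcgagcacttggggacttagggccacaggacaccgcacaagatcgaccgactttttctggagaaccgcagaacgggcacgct
Rpl8, chr15:76904104-76904266, plus strand: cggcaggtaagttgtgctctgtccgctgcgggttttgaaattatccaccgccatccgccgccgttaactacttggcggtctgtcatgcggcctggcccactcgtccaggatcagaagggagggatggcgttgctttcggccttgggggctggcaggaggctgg

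The 12 libraries held 9832884 to 31807394 tags, and the CRTC2 libraries 16438040 (FSK) to 31807394 (FSK/TNFα). The control CRTC2 list was the shortest with 5188 peaks, against 11749 (FSK), 19527 (TNFα) and 14171 (both), and 0.622% of its tags lay in peaks, against 1.94%, 3.098% and 2.05%. Depth, tags in peaks and input (untreated cells for control and TNFα, FSK-treated cells for the other two) differed between the libraries, and their part in the calls was not tested. As a check of the cell type, H3AcK27 in control cells covered a start site of 4 of 8 adipocyte marker genes (Fabp4, Lipe, Lpl and Pparg, but not Adipoq, Cebpa, Plin1 or Cd36), of 5 of 5 preadipocyte and fibroblast markers and of 1 of 5 leukocyte markers (Csf1r). The defining adipocyte genes were thus marked only in part. Of the induced sites, 5 lay in 2 Mb bins with high input, among them the Jun and Mdm2 sites, and the shares below moved by less than their intervals without these 5.

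The rule turned on the absence of a control peak, which is a threshold and not a level of 0. The control list had a lowest score of 8 and a median of 10.6 tags per 10000000, the scale on which the authors normalized each peak and which is called normalized tags here. Of the induced sites, 1611 (61.2%) had more than that median in all 3 treated libraries, and 538 (20.4%) had more than the control list's 90th percentile of 16.9. Another 238 sites (9.04%) had a control peak within 1 kb that did not overlap them. Just inside the rule, the sites at Ttc17 and Tti2 touched a control peak without sharing a base, and the site at Eefsec lay 1 bp from one. Just outside it, the peaks at Dusp5, Mmadhc and Orai3 shared 1, 2 and 5 bp with a control peak. The Tti2 site had 54.1, 64.6 and 52.8 normalized tags with FSK, TNFα and both, beside a control peak of 12.2, and the excluded Dusp5 peak had 29.8, 22.7 and 19.5 beside one of 12.7.

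CRTC2 levels at the induced sites were of similar size under the 3 treatments. The median was 15.2 normalized tags with FSK (quartiles 11.6 and 20.1), 19.6 with TNFα (14 and 26.8) and 14.5 with FSK/TNFα (11 and 19.8). The level with co-treatment mostly did not exceed the larger single one: it was above both single levels at 441 sites (16.7%), between them at 1033 (39.2%) and below both at 1160 (44.0%). TNFα gave the highest of the 3 levels at 1614 sites (61.3%) and FSK at 561 (21.3%). All 3 levels lay within 2-fold of each other at 1703 sites (64.7%). Peaks called in all 4 lists had higher medians, 22.5 with FSK, 32.9 with TNFα and 21.7 with both, and 13.2 in control, so induced sites were the weaker of these 2 classes that each treatment shared. Across the 2634 sites, the log2 level with FSK/TNFα followed that with FSK (Pearson r = 0.60, Spearman rho = 0.53) more closely than that with TNFα (r = 0.42, rho = 0.41), and FSK and TNFα had r = 0.40 with rho = 0.37. The FSK and FSK/TNFα libraries also share their input, and all 3 levels share the same threshold.

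**Figure D1:**
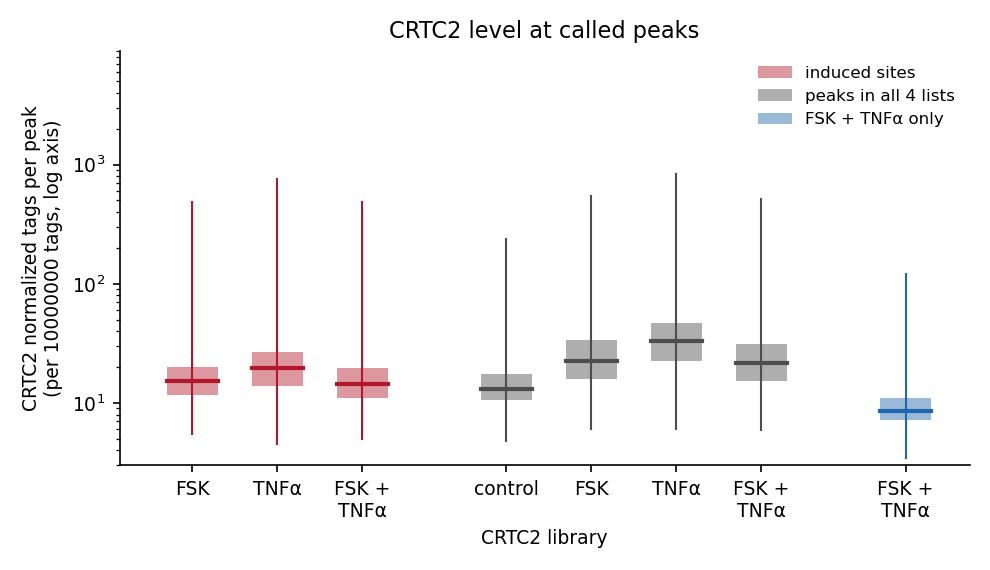
CRTC2 normalized tags per peak (log axis) in each library for the 2634 induced sites, the 1372 peaks called in all 4 lists and the 5588 peaks called only with FSK/TNFα. Thick lines are medians, boxes the middle 50% of peaks and thin lines the lowest to highest peak; the medians of the induced sites lie between 14.5 and 19.6, below those of peaks found in all 4 lists in the same libraries.

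The 20 best-ranked induced sites lay at promoters for the most part, and few of these 20 held a CRE core. The 20 sites with the smallest sum of score ranks were taken from the 1111 sites that were enriched at least 8-fold over input in all 3 treated lists and lay outside the bins of high input. Of these 20, 18 were promoter sites, 14 had their midpoint between 0 and 100 bp downstream of a start site, 2 held a CRE core (Btg2 and Cebpd) and none held an AP-1 motif. TNFα gave the highest level at 16, FSK at 3 and co-treatment at 1. Over all 2634 induced sites the share with a CRE core was 31.7%. That share rose from 21.4% in the lowest of 5 bands of FSK/TNFα score to 37.9% in the highest. For CRE cores, these 20 thus do not stand for well-scored induced sites in general.

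Dusp1 led these 20 with 75.4 normalized tags with FSK, 103.1 with TNFα and 76.1 with both. At Dusp1, the co-treatment level was close to the FSK level. Btg2 had 70.6, 60.1 and 66 in the same order, 3 levels close to each other. Zfp36, which encodes the mRNA decay factor tristetraprolin, had 49.9, 76.3 and 73.3.

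Nfkbia and Socs3 were among the 20. Nfkbia, the gene for the NF-κB inhibitor IκBα, had 37.1 normalized tags with FSK, 79.3 with TNFα and 55.6 with both. Socs3, which encodes an inhibitor of cytokine receptor signaling, had 41.4, 61.2 and 52.5. In both genes the midpoint lay in the 5′ UTR, the TNFα level was the highest and co-treatment fell between the single treatments.

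Levels at Cebpd ran the other way, with 66.9 normalized tags with FSK, 45 with TNFα and 43.7 with both. Tcim, a small regulator of transcription, also had more with FSK (56.0) than with TNFα (34.0), and 47.5 with both. At Cxcl1 the levels were 59.0, 87.6 and 54.7, and this was the one site of the 20 with a p65 peak in a TNFα-treated library. The others of the 20 were at Hist2h2bb, Slc16a1, Nfe2l1, Tti2, Tubb5, Hexim1, Vasn, Tubb2a, Rtn4 and Dynll1, and, 2839 bp downstream of Tmem107 and 24687 bp upstream of Usp46, between genes. Tubb2a had its highest level, 47.8, with co-treatment, against 38.3 with FSK and 46.8 with TNFα.

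Induced sites were promoter sites for the most part. A promoter, taken as 1000 bp upstream to 100 bp downstream of a protein-coding start site, was overlapped by 2093 sites (79.5%, interval 77.9 to 80.96), against 43.1% of all peaks of the FSK/TNFα list. The share was 87.3% (85.5 to 89.0) in the 1372 peaks of all 4 lists and 13.8% (12.9 to 14.7) in the 5588 peaks called only with FSK/TNFα. These intervals did not overlap. Of the rest, 221 induced sites (8.39%) lay in introns, 216 (8.20%) between genes and 104 (3.95%) in exons outside promoters.

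Because induced sites scored higher than peaks called only with FSK/TNFα, the comparison was repeated in 5 bands of score. In the lowest band, 72.3% (63.4 to 79.8) of 112 induced sites were promoter sites, against 7.15% (6.16 to 8.28) of 2266 peaks called only with co-treatment. In the highest it was 77.5% (74.4 to 80.3) of 778 against 26.0% (20.4 to 32.6) of 196. The difference was present in every band.

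The sites gathered around the start of transcription, somewhat more often downstream than upstream of it. The midpoint was within 100 bp of a start site at 1460 sites (55.4%, 53.5 to 57.3). That share was 28.0% of the whole FSK/TNFα list and 64.1% (61.6 to 66.6) of peaks in all 4 lists. For induced promoter sites the median was 15 bp downstream (quartiles 50 bp upstream and 62 bp downstream). Peaks of all 4 lists had a median of 19 bp downstream, and promoter peaks called only with co-treatment one of 49 bp upstream. Only 236 induced sites (8.96%) were more than 10 kb from any start site, against 38.5% of the whole list. Peaks of all 4 lists had 4.30% and peaks called only with co-treatment 62.5%. Of the promoter sites, 224 of 2093 (10.7%) were shared by promoters of 2 genes on opposite strands. The windows of 200 bp were rich in GC, with a median of 65% and 17 CpG. Peaks of all 4 lists were alike in this, with 64% and 17, while peaks called only with co-treatment had 46.5% and 2.

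**Figure D2:**
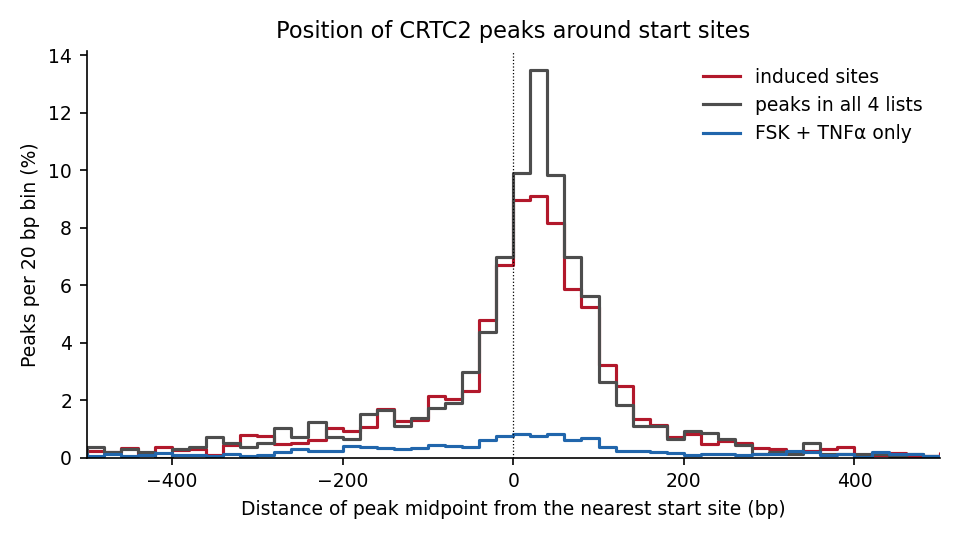
Percent of peaks per 20 bp bin by distance of the peak midpoint from the nearest protein-coding start site (bp, positive downstream) for induced sites, peaks in all 4 lists and peaks called only with FSK/TNFα. Induced sites gather around the start, most densely just downstream, as peaks of all 4 lists do. Only 6.34% of peaks called with co-treatment alone lie within 100 bp of a start site.

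Most start sites acetylated in control cells had a CRTC2 peak nearby with FSK, TNFα or both. Of 19992 start sites inside an H3AcK27 region of control cells, 24.4% had a CRTC2 peak within 1 kb in control, 56.9% with FSK, 82.4% with TNFα and 60.3% with both. These shares had the same order as the lengths of the 4 CRTC2 lists.

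Acetylation was in place at nearly every induced site before treatment. In control cells, 2607 sites (98.97%, 98.5 to 99.3) overlapped an H3AcK27 region, against 84.1% of the whole FSK/TNFα list, 98.98% (98.3 to 99.4) of peaks in all 4 lists and 65.5% (64.3 to 66.8) of peaks called only with co-treatment. In the treated libraries the shares at induced sites were 95.7% (FSK), 99.2% (TNFα) and 97.6% (both), against 80.8%, 84.9% and 82.6% of the whole list. When each H3AcK27 list was cut to its 38684 best-scored regions, the length of the FSK list, the control share was 88.4%. Of the 27 sites outside a control region in the full list, 18 were in a region of a treated library and 9 in none. The distal sites did not differ in this: 531 of 541 (98.2%, 96.6 to 98.99) were acetylated in control cells, against 60.8% (59.5 to 62.2) of distal peaks called only with co-treatment.

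The density of H3AcK27 tags in the regions that induced sites overlapped had a median of 69.6 normalized tags per kb in control, 75.4 with FSK, 75.1 with TNFα and 77.3 with both. In H3AcK27 regions over promoters that had no induced site, it was 62.3, 69.8, 67.5 and 69.8. Peaks of all 4 lists had 79.1, 82.8, 84.7 and 85.9, and peaks called only with co-treatment 57.9, 62.0, 61.0 and 59.0. The medians were higher in each treated library than in control for all 4 kinds of region, and the differences between kinds were not tested.

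CRE cores were the commonest factor motif at induced sites, apart from the GC box. Exact motif matches on either strand were counted in the 200 bp around the midpoint. TGACG was present at 834 sites (31.7%, 29.9 to 33.5), against 25.2% of the whole FSK/TNFα list, 29.96% (27.6 to 32.4) of peaks in all 4 lists and 16.3% (15.4 to 17.3) of peaks called only with co-treatment. In windows 2 kb away from the induced sites the share was 5.39%. The full CRE TGACGTCA, every match of which also holds the core, was present at 119 sites (4.52%, 3.79 to 5.38), against 2.96% of the list. Peaks of all 4 lists had it at 4.08% (3.16 to 5.26), an interval that overlapped that of induced sites. Peaks called only with co-treatment had it at 1.40% (1.12 to 1.74).

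Start sites in general are GC rich and hold this core more often than other sequence, so the sites within 100 bp of a start site were set beside start sites without CRTC2. TGACG was present at 523 of these 1460 sites (35.8%, 33.4 to 38.3). It was present in 18.7% of the 200 bp windows of all 41408 protein-coding start sites, and in 14.2% (12.9 to 15.6) of the 2566 start sites that were acetylated in control cells and had no CRTC2 peak within 1 kb in any list. The full CRE was at 5.82% (4.73 to 7.14) against 1.17% (0.820 to 1.66). The median GC content of those start sites without CRTC2 was 60%, below that of the induced sites, and the part of GC content in this difference was not tested.

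The cores were centred on the peaks. Per 20 bp, 4.75% of induced sites held a core just upstream of the midpoint, against 1.18% at 480 to 500 bp upstream. At sites near a start site that held a core, the nearest core was a median of 42 bp from the midpoint. Promoter sites with a core were placed a median of 6 bp downstream of the start, and those without it 21 bp downstream, while their CRTC2 levels were alike: medians of 15.8 and 14.6 normalized tags with FSK, 20.4 and 21.2 with TNFα, and 15.7 and 14.1 with both. Neither TGACG nor TGAGTCA was present at 1710 sites (64.9%, 63.1 to 66.7), so sites such as Dusp1 and Rpl8, printed above without capitals, were the common kind.

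AP-1 motifs showed the opposite pattern. TGAGTCA was present at 128 induced sites (4.86%, 4.10 to 5.75), against 14.5% of the whole list, 2.48% (1.78 to 3.44) of peaks in all 4 lists and 19.9% (18.9 to 20.99) of peaks called only with co-treatment. In windows 2 kb away from the induced sites the share was 3.30%. The motif was concentrated at distal sites, with 96 of 541 (17.7%, 14.8 to 21.2) against 32 of 2093 promoter sites (1.53%, 1.09 to 2.15). Distal peaks called only with co-treatment had it at 22.3% (21.2 to 23.5), an interval that just overlapped that of distal induced sites. Promoter peaks called only with co-treatment had it at 4.93% (3.61 to 6.69), above induced promoter sites, with intervals that did not overlap. With CRTC2 lists of equal length, which left 871 sites, the share over all induced sites was 1.15% (0.625 to 2.10), so its place above peaks of all 4 lists rests on the full lists. Distal peaks of all 4 lists had it at 4.02% (1.96 to 8.07), so the distal induced sites held AP-1 motifs more often than distal sites already bound in control cells, and the intervals did not overlap.

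For GC boxes and C/EBP motifs the intervals of induced sites and of peaks in all 4 lists overlapped. The GC box GGGCGG, bound by SP factors, was present at 51.2% (49.3 to 53.1) of induced sites, against 28.5% of the list, 53.2% (50.6 to 55.8) of peaks in all 4 lists and 10.2% (9.45 to 11.0) of peaks called only with co-treatment. The C/EBP motif TTGCNNAA was present at 5.20% (4.42 to 6.12), against 11.3% of the list, 3.94% (3.03 to 5.10) of peaks in all 4 lists, 15.5% (14.6 to 16.5) of peaks called only with co-treatment and 7.78% of windows 2 kb away. TGACGCAA, which joins a CRE core to a C/EBP site, was at 28 sites (1.06%), against 0.903% of the list. The CCAAT box was at 21.3% against 21.6%. The exact NF-κB motif was at 2 sites (0.0759%), against 0.409% of the list, and the looser form GGNNTTTCC at 111 (4.21%), against 5.41%.

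**Figure D3:**
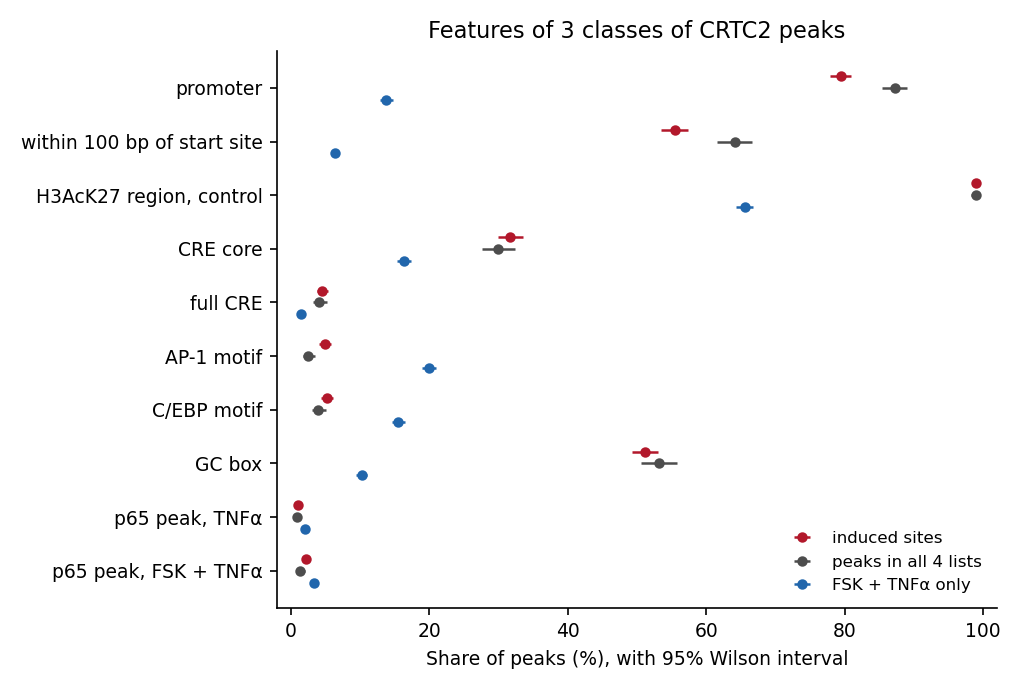
Share of peaks (%) with each feature in induced sites (2634), peaks of all 4 lists (1372) and peaks called only with FSK/TNFα (5588), with 95% Wilson intervals as bars. Induced sites have fewer promoters (79.5% against 87.3%) and more AP-1 motifs (4.86% against 2.48%) than peaks of all 4 lists, and the peaks called only with co-treatment have fewer promoters, CRE cores and GC boxes and more AP-1 and C/EBP motifs.

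**Figure D4:**
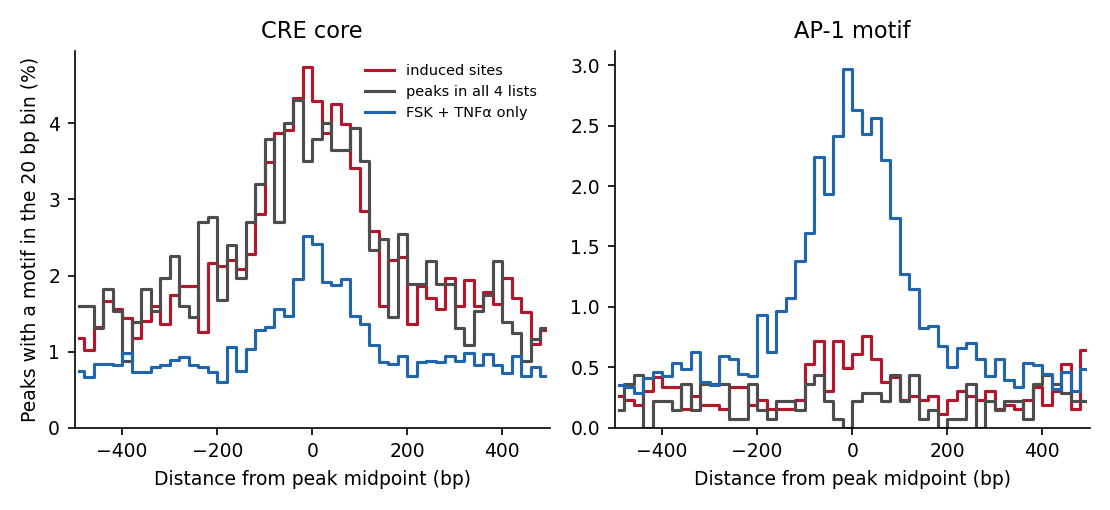
Percent of peaks with a CRE core (left) or an AP-1 motif (right) in each 20 bp bin by distance from the peak midpoint (bp), for the same 3 classes. CRE cores rise around the midpoint in all 3 classes, and AP-1 motifs do so most in the peaks called only with FSK/TNFα.

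p65 rarely shared an induced site. A p65 peak overlapped 4 sites in control cells (0.152%, against 0.0776% of the whole FSK/TNFα list), 17 with FSK (0.645%, against 0.6%), 28 with TNFα (1.06%, interval 0.736 to 1.53, against 1.81%) and 56 with both (2.13%, 1.64 to 2.75, against 3.36%). Peaks of all 4 lists had 0.875% (0.501 to 1.52) with TNFα and 1.24% (0.775 to 1.98) with both. Peaks called only with co-treatment had 2.08% (1.73 to 2.48) and 3.29% (2.86 to 3.79), above the induced sites, with intervals that did not overlap. For p65 with both, this order was not kept within promoter or within distal peaks. Induced promoter sites had 0.812% (0.508 to 1.30) against 0.778% (0.357 to 1.69), and induced distal sites 7.21% against 3.70%. With CRTC2 lists of equal length the induced sites had 0.689% (TNFα) and 0.918% (FSK/TNFα). All p65 lists were short, with 214, 2969, 2404 and 4221 peaks, and a p65 peak below the threshold is not listed.

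Where p65 was found, it was mostly at distal sites. With co-treatment, 39 of 541 distal induced sites had a p65 peak (7.21%, 5.32 to 9.70), against 17 of 2093 promoter sites (0.812%, 0.508 to 1.30). Distal peaks called only with co-treatment had 3.70% (3.20 to 4.27), but among peaks of the highest score band the order was lost: 25 of 175 distal induced sites (14.3%, 9.87 to 20.2) against 25 of 145 (17.2%, 11.96 to 24.2), with overlapping intervals. Both TNFα-treated p65 libraries had a peak at 14 induced sites (0.532%, against 0.833% of the list), and at 0 of the 1372 peaks of all 4 lists, which allows a share of up to 0.279%.

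The 10 of these 14 sites with the smallest sum of CRTC2 score ranks were at Cxcl1, Apba3, Kdm6b, Lif, Cebpb, Gm5475, Cxcl5, Tubd1, Apbb2 and Zfp36l2, and all 10 lay in H3AcK27 regions in every library. The distal Cebpb site had 97.3 normalized CRTC2 tags with FSK, 10.6 with TNFα and 112.2 with both, and 27.9 normalized p65 tags with TNFα and 45.4 with both. TNFα alone gave a low CRTC2 level there, below the lower quartile of 14 over induced sites, although p65 was called. A p65 peak was called at this site with FSK too, with 22.5 tags.

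The distal Lif site had 29.2, 11.3 and 58.8 CRTC2 tags, so that co-treatment was above both single treatments, and 26.8 and 32.2 p65 tags with TNFα and both. The site 5498 bp upstream of Cxcl5, a neutrophil chemokine gene, had 36.5, 9.07 and 35.8 CRTC2 tags and an AP-1 motif. Its p65 levels were 14.5 and 27.8. These 3 distal sites had more CRTC2 with FSK than with TNFα.

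Kdm6b, which encodes an H3K27 demethylase, had a site in an intron 4217 bp downstream of its start, with 21.3, 20 and 33.6 CRTC2 tags and 14.1 and 15.6 p65 tags with TNFα and both. The promoter site of Apba3 had 24.3, 36.3 and 37.4 CRTC2 tags and 16.7 and 17.6 p65 tags. Gm5475, a predicted gene, had its site 671 bp upstream, with CRTC2 levels of 14.0, 16.6 and 18.9 and p65 levels of 23.4 and 63.0, the latter the highest p65 level with co-treatment among the 10. The introns that held the sites nearest to Tubd1, Apbb2 and Zfp36l2 were between 58952 and 132874 bp from those start sites.

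The balance between TNFα and FSK separated kinds of induced site. The sites were put into 4 equal groups by the ratio of their CRTC2 level with TNFα to that with FSK, with median ratios of 0.713, 1.11, 1.48 and 2.15 from group 1, which leaned to FSK, to group 4, which leaned to TNFα. The median level fell from 18.3 to 11.6 with FSK and rose from 12.1 to 27.6 with TNFα from group 1 to 4, while the level with both stayed between 14.1 and 14.8. Promoter sites made up 63.9% (60.1 to 67.5) of group 1 and 85.0% (82.0 to 87.5) of group 4.

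CRE cores were commonest where FSK led. TGACG was present at 38.8% (35.2 to 42.6), 33.9%, 28.5% and 25.4% (22.2 to 28.8) of groups 1 to 4, and the intervals of the outer groups did not overlap. Promoter sites showed the same order, with 40.9% (36.3 to 45.6) in group 1 and 27.4% (23.8 to 31.2) in group 4, and so did distal sites, with 35.3% (29.5 to 41.6) and 14.1% (8.61 to 22.3). The median GC content of the windows rose from 61% in group 1 to 67.5% in group 4. With only windows of 60 to 70% GC, an alternative added after the data were seen, the shares were 38.6% (32.7 to 44.7) and 26.8% (22.1 to 32.0), and these intervals did not overlap.

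AP-1 motifs and p65 were also commonest in group 1. TGAGTCA was at 11.7% (9.45 to 14.4) of group 1 and 1.52% (0.828 to 2.77) of group 4, and at 28.6% (23.2 to 34.6) and 3.03% (1.04 to 8.53) of their distal sites. A p65 peak in either TNFα-treated library overlapped 5.46% (3.97 to 7.47) of group 1 and 1.37% (0.721 to 2.58) of group 4. At promoter sites the p65 shares were 0.9501% (0.370 to 2.42) and 0.894% (0.383 to 2.08), with overlapping intervals. In windows of 60 to 70% GC the AP-1 shares were 3.21% (1.64 to 6.21) and 1.34% (0.521 to 3.39) and the p65 shares 1.205% (0.411 to 3.48) and 0.334% (0.0591 to 1.87), and these intervals overlapped. GC boxes ran the other way, from 39.3% (35.6 to 43.1) to 60.6% (56.9 to 64.3).

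Among the 1505 sites in the better-scored part of all 3 lists, the lowest ratios were at Babam2, Cebpb and near Notch3, which encodes a Notch receptor. Babam2 had 104.6 normalized tags with FSK, 11.0 with TNFα and 109.4 with both (ratio 0.105). The Cebpb site had a ratio of 0.109. The site 57981 bp from Notch3 had 75.4, 12.5 and 72.3 (ratio 0.166), held 2 CRE cores and bound p65 with co-treatment (30.7 p65 tags). At all 3, co-treatment gave the FSK level or slightly more or less, and each held at least 2 cores.

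The highest ratios were at Rpl8, Glcci1 and Ripk2, and none of these 3 held a core. Rpl8 had 15.2 normalized tags with FSK, 68.8 with TNFα and 24.8 with both (ratio 4.53). Glcci1 had 10.3, 45.3 and 21.1 (ratio 4.398). Ripk2, which encodes a kinase that signals to NF-κB, had 10.3, 44.2 and 21.4 (ratio 4.29). At these 3, the level with co-treatment lay between those of FSK and TNFα alone. The sites at both ends were chosen by this ratio.

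**Figure D5:**
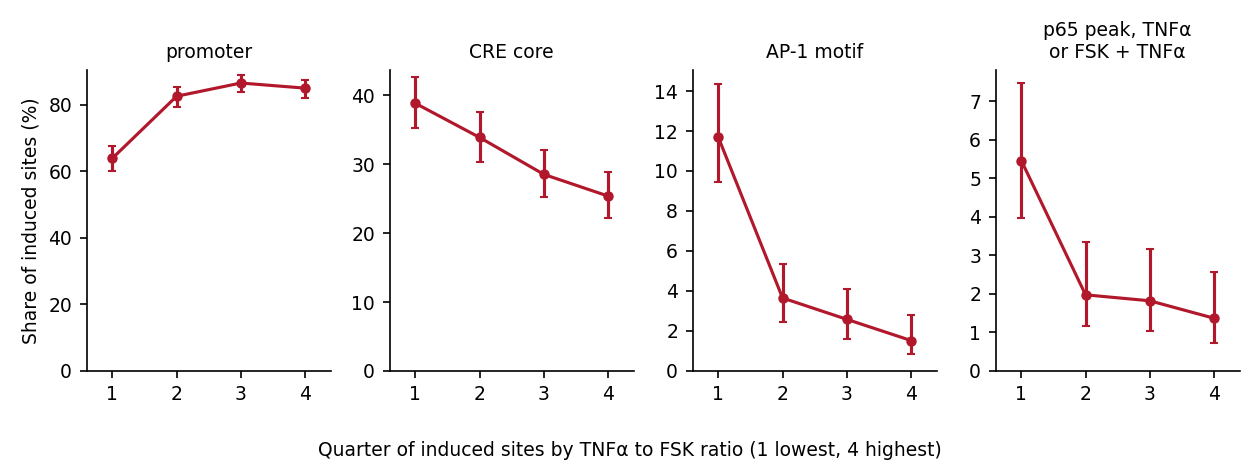
Share (%) of induced sites in a promoter, with a CRE core, with an AP-1 motif and with a p65 peak in either TNFα-treated library, in 4 equal groups of 658 or 659 sites by the TNFα to FSK ratio of CRTC2, with 95% Wilson intervals. CRE cores fall from 38.8% to 25.4% over the groups, and AP-1 motifs and p65 drop after the group that leans most to FSK.

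Induced sites were counted at genes of 7 lists. Of all 21827 protein-coding genes, 14% had an induced site within 10 kb of a start site and 10.5% in a promoter, and of the 10678 genes acetylated in control cells 21.2% had one in a promoter. Of 35 cAMP and CREB target genes, 14 had a site within 10 kb and 10 of these in a promoter (33.3% of the 30 that were acetylated): Nr4a1, Dusp1, Csrnp1, Btg2, Egr1, Gem, Ptgs2, Bdnf, Maff and Klf9. A promoter peak of all 4 lists was present at 8 of the 35, among them Fos, Junb and Id1, against 11 of 28 cytosolic ribosomal protein genes. The share of all genes with such a peak was not counted, so these counts do not set the cAMP list apart.

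Levels at these genes leaned to FSK in part. Ptgs2 had 38.9 normalized tags with FSK, 20 with TNFα and 37.1 with both. Gem had 18.9, 7.56 and 34.3, and Maff, a small MAF factor, 23.7, 9.82 and 34.6, so that co-treatment was above both single treatments in both genes. Klf9 had 11.6, 11.3 and 24.5. Nr4a1, an orphan nuclear receptor, had 15.2, 8.31 and 12.6. Egr1, an early zinc finger factor, had 21.3, 28.3 and 25.2 and leaned to TNFα. The sites upstream of the Nr4a1 relatives Nr4a2 and Nr4a3 were outside the promoter window, at 1774 and 2306 bp, and each held a core.

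Of 34 NF-κB target and cytokine genes, 6 had an induced site within 10 kb and 3 in a promoter (11.5% of the 26 that were acetylated, against 21.2% of all acetylated genes): Nfkbia, Cxcl1 and Birc3, the last an inhibitor of apoptosis with 15.8, 13.2 and 39.0 normalized tags with FSK, TNFα and both. A promoter peak of all 4 lists, and so one called in control cells too, was present at 13 of the 34, among them Ccl2, Il6, Vcam1 and Irf1. This was more than the 3 with an induced promoter site. Of 28 cytosolic ribosomal protein genes, 11 had such a peak, also more than the 8 with an induced promoter site. No share over all genes is given for these peaks, so the counts do not set the NF-κB list apart from other genes. A p65 peak overlapped the Cxcl1 and Cxcl5 sites in both TNFα-treated libraries, and the Nfkbiz and Birc3 sites with co-treatment.

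Of 13 genes for AP-1 subunits and relatives, 5 had an induced site within 10 kb and 3 in a promoter (Jun, Maff and Jdp2, 37.5% of the 8 that were acetylated). The Jun site, 389 bp upstream, had 138.7, 172.3 and 133.9 normalized tags, but it lay in a bin of high input, with 30.9 input tags and only 4.49-fold enrichment over input with FSK. The site 2042 bp upstream of Fosl2 had 62.7, 21.5 and 54.4 and held a core.

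Of 24 regulators of CREB, CRTC, SIK and PKA, 4 had a site within 10 kb and 3 in a promoter (15% of the 20 that were acetylated). Sik2, which encodes the salt inducible kinase that restrains CRTCs in adipocytes, had 13.4 normalized tags with FSK, 21.2 with TNFα and 29.9 with both at a site 9 bp upstream of its start. Its relative Sik3 had 33.5, 10.2 and 17.0 and a core, and Atf1, a CREB relative, 28.6, 22.3 and 17.6. Of 15 genes for MAP kinase phosphatases and ERK feedback, 5 had a site within 10 kb and 4 in a promoter (Dusp1, Dusp6, Dusp14 and Spry4, 28.6% of the 14 that were acetylated). Dusp14 leaned to FSK, with 32.2, 11.7 and 23.9, and Spry4 to TNFα, with 11.0, 43.4 and 20.1.

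Of 28 adipocyte identity and lipid genes, 6 had an induced site, all in a promoter (31.6% of the 19 that were acetylated). Beside Cebpd these were Plin2, a lipid droplet coat protein, with 15.8, 12.1 and 19.2 normalized tags, Pnpla2, the triglyceride lipase ATGL, with 14.0, 17.0 and 6.92, Klf5 with 12.8, 18.5 and 20.4, Srebf1, a regulator of lipid synthesis, with 10.3, 26.1 and 13.5, and Insr, the insulin receptor, with 26.8, 23.8 and 14.5. Apart from Cebpd their levels were modest, and the direction differed from gene to gene. Of 28 cytosolic ribosomal protein genes, taken as housekeeping genes, 9 had a site within 10 kb and 8 in a promoter (28.6%, all 28 being acetylated). The share in this housekeeping list was thus of the size of that in the cAMP list among acetylated genes.

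Single sites per gene were the rule. The 2634 sites had 2515 nearest genes, of which 2402 had 1 site, 107 had 2 and 6 had 3. The genes with 3 were Ets2, Iigp1, Klf10, Noct, Tbcc and Zmiz1, the last named after its count was seen. At Klf10, a zinc finger gene of TGFβ signaling, the promoter site had 28.6, 52.5 and 15.1 normalized tags, and the sites 23798 bp downstream and 84221 bp upstream had at most 24.2. At Noct, which encodes the circadian protein nocturnin, the promoter site had 18.3, 24.9 and 18.2, and a neighbouring site in the 5′ UTR, 488 bp downstream of the start, had 18.3, 34.8 and 35.2. Of all induced sites, 242 (9.19%) had another within 10 kb.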

How the data were processed

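ChIP-seq peak lists for CRTC2, p65 and H3AcK27 were used, 12 lists with 1 library for each antibody and treatment, grouped by the sample labels. Per the submitters' processing notes, reads were handled with STAR and HOMER on mm10, and versions are not given in the sources used here. The authors deposited each peak's signal as tags normalized to 10000000 per library. Input signal on this scale was derived here by dividing a peak's normalized tags by its deposited fold over input. The deposited score ranks peaks within a list, and the deposited fold is the ratio of peak to input tags. Per the file headers, a CRTC2 or p65 peak had to exceed input and the surrounding 10 kb by 4-fold, and H3AcK27 regions were joined from windows of 500 bp. Control and TNFα libraries were called against untreated input, the others against FSK input. Weaker peaks are missing from the lists, and shallower libraries can list fewer.

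Overlaps of at least 1 bp counted as shared. Where a site overlapped several peaks of a list, the best-scored one gave its level. Start sites were those of protein-coding transcripts of the basic set of GENCODE M21. GC content and motifs were read from GRCm38 in 200 bp. Bins of 2 Mb with a mean input signal over 5 times the median were called high in input. No test across peaks was made, and shares carry 95% Wilson intervals. The members and the 7 gene lists were chosen with earlier results of these data known. Sites given by name were the 20 best by sum of score ranks, list genes with a promoter site, the 10 best with p65 in both TNFα-treated libraries, the 5 genes with most sites, and the 3 at each end of the TNFα to FSK ratio. Other sites, such as those at the edge of the rule, in bins of high input or near list genes outside promoters, were named after their values were seen. Sequences came from named sites with a motif, and Dusp1, Rpl8 and Babam2 were added after their values were seen. Scripts were tested on simulated data (25 checks), and 1761 of 1761 planted sites were recovered from 14171 peaks. Python 3.11.15, numpy 2.4.6, pandas 2.3.3, scipy 1.17.1, pysam 0.24.0, matplotlib 3.10.9 and samtools 1.23.1 were used. Alternatives covered overlap, fold, list length, distance to control peaks, promoter extent, motif window and gene distance. Sequencing reads were not analysed here.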

Additional observations from a re-analysis of the deposited data

Results flagged for a closer look

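The input signal, which served only to rank and to leave out sites, stood out at 5 induced sites in bins of high input, at Yeats4, Mdm2, Rap1b, Cand1 and Jun. The highest FSK-input signal at an induced site was 97.3 normalized tags at Mdm2, where the median over induced sites was 1.47. The Mdm2 site had 483.6 normalized CRTC2 tags with FSK, 761.2 with TNFα and 483.8 with both, which were 4.97-fold, 10.5-fold and 5.10-fold over input. The bins lay on chromosomes 10 and 4.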

How the results depend on the processing

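Of 173 alternative values over 31 results, 114 stayed within the interval of the main value, or within 1.5 times it for counts, and 59 did not. The cause was not tested where values moved. Every result rests on 1 library per antibody and treatment, so a peak missed at lower depth cannot be told apart from one that was absent. No paired analysis was possible because each group had 1 library and the results come from no test.

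Peaks of at least 8-fold over input left 1313 induced sites, and the 5188 best-scored peaks of each list left 871. With 8-fold peaks the p65 share with FSK/TNFα was 1.52%, the promoter share 83.3%, and the shares of AP-1 and C/EBP motifs 3.73% and 4.34%. Group 1 by TNFα to FSK ratio then had CRE cores at 45.3%, AP-1 motifs at 8.51% and promoters at 71.4%, and group 4 had promoters at 89.3%. With 8-fold peaks a site lay within 10 kb of 1642 genes in all, of 1 AP-1 gene, 1 CREB, CRTC, SIK and PKA regulator, 2 MAP kinase phosphatase and ERK feedback genes and 4 ribosomal protein genes. With lists of equal length the p65 shares were 0.689% (TNFα) and 0.918% (both), the H3AcK27 shares 99.3% (control), 97.7% (FSK), 99.9% (TNFα) and 98.97% (both), the promoter share 87.4%, and the motif shares 33.6% (CRE core), 5.63% (full CRE), 1.15% (AP-1), 2.53% (C/EBP) and 58.8% (GC box). H3AcK27 lists of equal length gave 88.4% (control), 88.0% (TNFα) and 95.7% (both).

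A motif window of 100 bp gave 17.5% for the CRE core, 2.58% for the full CRE, 2.70% for AP-1, 2.16% for C/EBP, 26.3% for the GC box and 9.98% for CCAAT, and 1 of 400 bp gave 44.9%, 5.85%, 6.38%, 10.1%, 72.2% and 41.0%. A promoter of 2500 bp on each side gave 88.1%. A p65 midpoint within 100 bp gave 1.59% with FSK/TNFα, and p65 peaks widened to 500 bp on each side of the midpoint gave 1.56% with TNFα. In windows of 60 to 70% GC, promoters made up 83.1% of group 1 and 88.0% of group 4, AP-1 motifs 3.21% of group 1, and p65 1.205% and 0.334%. A distance of 50 kb gave 5830 genes in all, 15 of the NF-κB list, 8 of AP-1, 10 of CREB, CRTC, SIK and PKA regulators, 10 of the adipocyte and 18 of the ribosomal list, and promoters alone gave 3 of the NF-κB and 3 of the AP-1 list. Without sites that had a control peak within 1 kb, 3 AP-1 genes were left.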
